A study of Mus musculus with 11 samples.

Results

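The transcripts of 10 immediate early genes were followed in CD8 T cells recovered from mouse mammary tumors. The genes were Fos, Fosb, Jun, Junb and Jund, whose proteins form the transcription factor AP-1, together with Atf3, Ier2, Ier3, Dusp1 and Zfp36. They were taken by name from a list of genes known to respond to cell activation or tissue dissociation. The list was chosen with earlier results of these data known. All 10 had a row on the array that names 1 gene and all 10 passed the filter on dim genes, out of 20259 genes named and 15194 tested.

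High avidity CD8 T cells from T cell receptor transgenic donors that bear the congenic marker Thy1.2 were purified by bead depletion of other cells and transferred into tumor-bearing hosts, and both T cells and hosts either carried galectin-3, a glycan-binding lectin encoded by Lgals3 (wild type, WT), or lacked it (knockout, KO). There were 4 arrays of WT T cells in WT hosts, the reference group, 3 arrays of WT T cells in KO hosts and 4 arrays of KO T cells in KO hosts. No group held KO T cells in WT hosts, so the T cell genotype was compared only within KO hosts. All hosts carried tumors of NT2.5, a mammary tumor line of the mouse, on both sides from day 0. Cyclophosphamide (100 mg/kg) followed on day 8, a GM-CSF-secreting cell vaccine on day 9 and the T cells on day 10. At 5 days after transfer the tumors were removed, pressed through a strainer and then digested with collagenase IV and hyaluronidase, and the transferred cells were sorted by Thy1.2. The design text names 4 biological replicates in each group. For WT T cells in KO hosts, 3 arrays were used and the remaining replicate was not analysed here. Whether an array holds the cells of 1 mouse or of several is not stated, and the p-values therefore reflect only how far these samples vary.

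Immediate early genes are transcribed within minutes of a stimulus, without new protein synthesis, when MAP kinase, calcium or NF-kappaB signalling acts on transcription factors already present in the cell. Fos and Jun proteins pair into AP-1, which in T cells acts with NFAT on cytokine genes after the T cell receptor is engaged. The same genes are also known to be induced while solid tissue is digested with enzymes, and several of them encode proteins that end the response, such as a phosphatase of MAP kinases and a protein that destabilises short-lived mRNAs.

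Promoters are shown for 6 of the genes: Ier3 and Jun, whose signals did not overlap between host genotypes, and the pairs Fos with Zfp36 and Atf3 with Dusp1, which moved together most closely between arrays of one group. Each sequence runs 5′ to 3′ on the gene's strand, from 250 bases before to 50 bases after the annotated start, as given by RefSeq for GRCm38.p6. The windows are chr17:35821463-35821762 on the plus strand for Ier3, chr4:95052173-95052472 on the minus strand for Jun, chr12:85473640-85473939 on the plus strand for Fos, chr7:28379179-28379478 on the minus strand for Zfp36, chr1:191183284-191183583 on the minus strand for Atf3 and chr17:26508423-26508722 on the minus strand for Dusp1. Capitals mark matches to the cAMP response element (CRE) TGACGTCA, its core TGACGT, the CArG box bound by SRF, the NF-kappaB site or a TATAA stretch on the gene's strand.
Ier3: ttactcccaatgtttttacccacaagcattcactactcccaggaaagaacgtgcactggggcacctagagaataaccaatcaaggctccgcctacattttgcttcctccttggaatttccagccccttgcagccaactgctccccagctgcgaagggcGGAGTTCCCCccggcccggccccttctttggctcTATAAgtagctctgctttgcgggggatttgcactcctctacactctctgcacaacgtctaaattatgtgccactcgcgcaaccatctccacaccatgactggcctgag
Jun: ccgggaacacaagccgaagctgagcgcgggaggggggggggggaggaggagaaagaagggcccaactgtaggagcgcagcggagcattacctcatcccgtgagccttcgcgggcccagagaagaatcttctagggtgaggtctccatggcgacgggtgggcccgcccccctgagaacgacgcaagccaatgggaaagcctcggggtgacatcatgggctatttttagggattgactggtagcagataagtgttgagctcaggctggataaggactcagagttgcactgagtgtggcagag
Fos: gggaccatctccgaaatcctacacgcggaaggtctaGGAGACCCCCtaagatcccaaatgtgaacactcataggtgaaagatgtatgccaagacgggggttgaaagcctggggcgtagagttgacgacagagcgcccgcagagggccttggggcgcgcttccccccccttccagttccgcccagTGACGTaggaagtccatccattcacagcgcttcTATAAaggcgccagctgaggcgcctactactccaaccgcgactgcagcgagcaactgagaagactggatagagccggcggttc
Zfp36: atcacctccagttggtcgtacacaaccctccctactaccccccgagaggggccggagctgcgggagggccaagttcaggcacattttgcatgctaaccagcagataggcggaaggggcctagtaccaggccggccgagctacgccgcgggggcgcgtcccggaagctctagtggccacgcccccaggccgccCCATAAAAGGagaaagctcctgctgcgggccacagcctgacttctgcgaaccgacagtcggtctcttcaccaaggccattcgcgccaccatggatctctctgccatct
Atf3: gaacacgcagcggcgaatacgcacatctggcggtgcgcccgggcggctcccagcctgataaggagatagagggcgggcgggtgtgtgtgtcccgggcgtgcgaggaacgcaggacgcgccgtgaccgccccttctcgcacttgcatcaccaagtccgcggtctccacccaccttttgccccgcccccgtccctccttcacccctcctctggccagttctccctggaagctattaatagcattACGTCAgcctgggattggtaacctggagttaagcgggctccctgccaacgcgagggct
Dusp1: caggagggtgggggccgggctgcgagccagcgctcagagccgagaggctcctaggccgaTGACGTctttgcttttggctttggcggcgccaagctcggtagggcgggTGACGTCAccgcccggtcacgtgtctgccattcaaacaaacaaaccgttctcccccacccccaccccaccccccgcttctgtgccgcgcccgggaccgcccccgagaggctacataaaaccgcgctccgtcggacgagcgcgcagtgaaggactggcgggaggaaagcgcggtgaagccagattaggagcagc

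In these windows, with 1 as the first transcribed base, the Ier3 promoter held an NF-kappaB match on the opposite strand at -92 to -83 and TATAA at -58 to -54. The Fos promoter held an NF-kappaB match on the opposite strand at -214 to -205, a CRE core at -66 to -61 and TATAA at -33 to -29. The Dusp1 promoter held a full CRE at -143 to -136, which contains the core on both strands, and a further core at -191 to -186. The Atf3 promoter held the CRE core on the opposite strand at -8 to -3, and the Zfp36 promoter a CArG box at -58 to -49. The Jun window held none of these motifs, and none of the 9 member promoters in the table held the AP-1 site TGANTCA. Over 32851 mouse promoters of the same length, searched on both strands, the full CRE occurred in 1.79%, the CRE core in 7.51%, the AP-1 site in 7.81%, the CArG box in 1.63%, the NF-kappaB site in 8.46% and TATAA in 24.9%. Of the 9 member promoters, 1 held the full CRE, 3 the CRE core, 1 the CArG box, 3 the NF-kappaB site and 3 TATAA. These are matches of letters and not measured binding sites, and Ier2 had no entry. Only these letter patterns within these windows were searched, so variant sites and sites farther upstream were not covered.

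Lgals3 bears on the T cell genotype, and sorted T cells give no check of the host genotype. WT T cells had mean log2 signals of 8.31 ± 0.17 (SD, n = 4) from WT hosts and 8.27 ± 0.22 (SD, n = 3) from KO hosts, and KO T cells 7.43 ± 0.14 (SD, n = 4). Every array of KO T cells lay below every array of WT T cells, while their signal stayed above the filter value of 4.33. Which part of the gene is deleted is not given in the sources used here, nor how the probe set lies to it. The sorted cells carried T cell transcripts, with a mean log2 signal over 10 T cell markers of 9.34 to 9.58, 9.49 to 9.59 and 9.40 to 9.63 in the arrays of the 3 groups in that order. The mean over the 15 monocyte and macrophage markers with a row was 6.04 to 6.18 in WT hosts, against 6.36 to 6.86 and 6.33 to 6.65 in the groups from KO hosts, and their summed linear signal was 1590 to 1811, 1982 to 2905 and 1928 to 2452. Of the 14 such markers tested, 13 were higher in KO hosts than in WT hosts, beside 46.5% of all genes. At an unadjusted p under 0.05, 9 of them were higher, beside 5.07% of all genes, although none passed the adjusted threshold. Csf1r, Itgam and Apoe were higher by 0.79, 0.63 and 0.68. The 9 include Msr1 and Adgre1, whose means of 3.95 and 4.21 in WT hosts lay below the filter value. These genes were tested only through their signal in KO hosts. Markers of tumor epithelium averaged 5.11 to 5.51, 5.22 to 5.29 and 4.99 to 5.34, and neutrophil markers 4.60 to 4.73, 4.53 to 4.82 and 4.97 to 5.28. Arrays also differed in how wide their values spread, measured as the slope of an array on the mean array, which was 0.956 and 0.934 in arrays 1 and 4 of WT T cells in WT hosts and 0.989 to 1.04 in the other 9.

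Ier3 and Jun were higher in every array from KO hosts than in any from WT hosts, by 0.89 and 0.48 on the log2 scale on average, while Zfp36, Junb and Jund lay close to the reference. Of the 10 genes, 8 had a higher mean in WT T cells in KO hosts than in the reference group, and 8 did so in KO T cells in KO hosts, but the smallest of these differences, for Zfp36 in both and for Fos in WT T cells, turned negative under quantile normalization. These comparisons use the same 4 reference arrays, so their likeness is not independent. No member passed an adjusted p of 0.05 in limma in any comparison. In sorted bulk samples, fewer cells expressing a gene and less of its RNA per cell cannot be told apart.

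**Figure D1:**
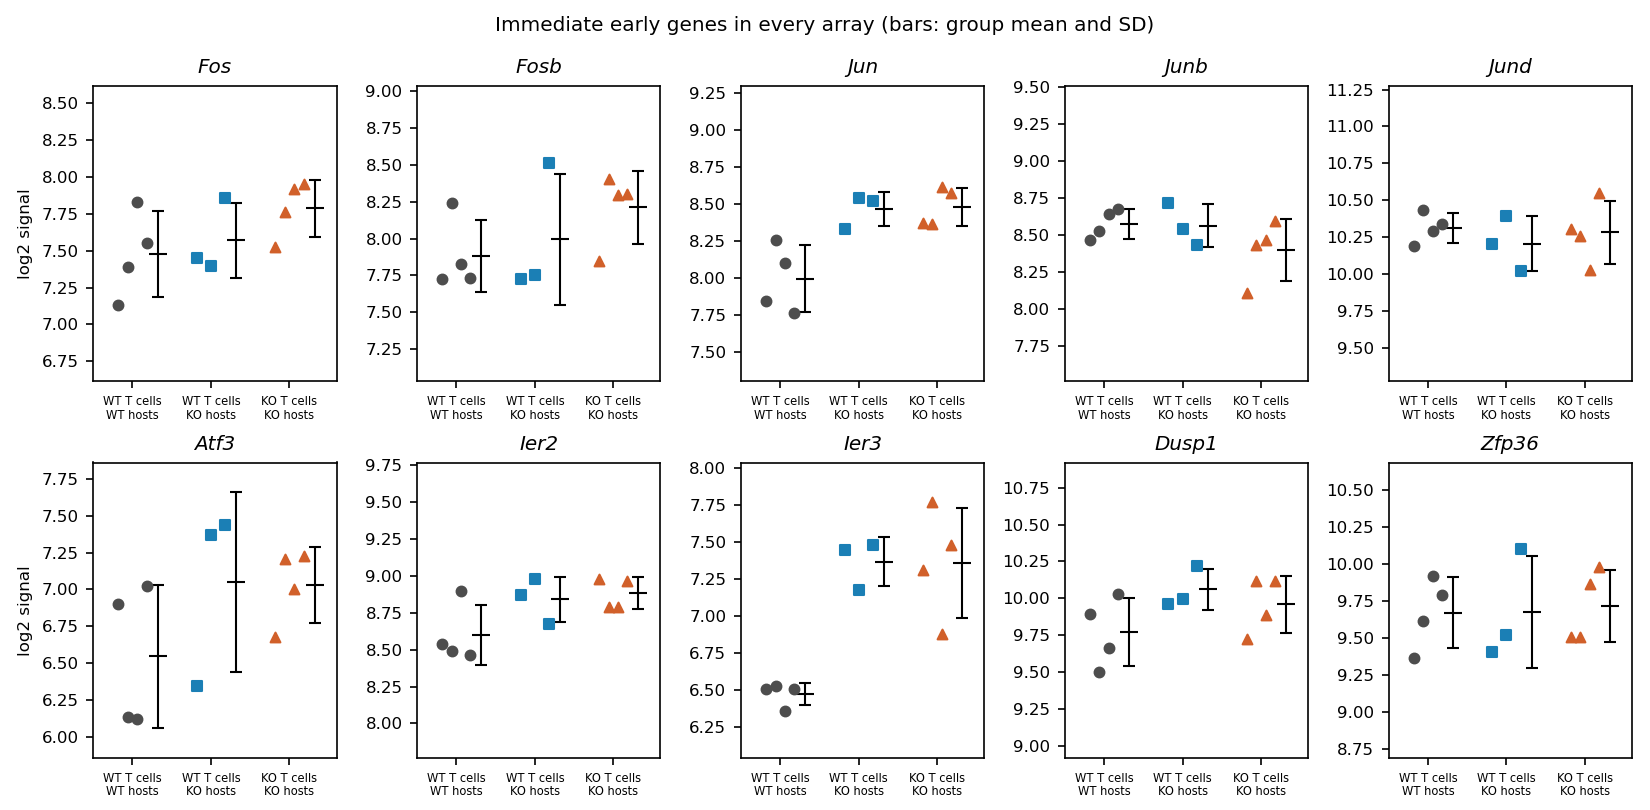
Deposited log2 signal (vertical axes) of the 10 immediate early genes in each of the 11 arrays, by group on the horizontal axes, with each panel spanning the same log2 range; bars give the group mean and SD. Ier3 lies between 6.36 and 6.52 in WT hosts and between 6.88 and 7.77 in KO hosts, and Jun between 7.77 and 8.26 against 8.33 to 8.61.

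Fos is the founding Fos protein, which binds DNA only as a partner of a Jun protein. The log2 signal of Fos was 7.13, 7.39, 7.83 and 7.55 in WT T cells in WT hosts, 7.45, 7.40 and 7.86 in WT T cells in KO hosts and 7.52, 7.76, 7.91 and 7.95 in KO T cells in KO hosts. The groups overlapped, with array 1 of the reference group lowest and array 4 of the KO T cells highest. The mean difference from the reference was 0.09 ± 0.18 (SE) for WT T cells in KO hosts (limma adjusted p = 0.874) and 0.31 ± 0.17 for KO T cells in KO hosts (limma adjusted p = 0.612). Neither passed the threshold, and the smaller one was -0.000193 under quantile normalization.

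Fosb, a close relative of Fos that also needs a Jun partner, had log2 signals of 7.73, 8.24, 7.83 and 7.73 in the reference group. They were 7.73, 7.75 and 8.51 in WT T cells in KO hosts, and 7.85, 8.40, 8.29 and 8.30 in KO T cells in KO hosts. Array 3 of WT T cells in KO hosts stood well above the other arrays of its group, and 3 of the 4 KO T cell arrays lay above every reference array. Fosb differed from the reference by 0.11 ± 0.21 (SE) and 0.33 ± 0.20 in those groups (limma adjusted p = 0.867 and 0.634).

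Jun, the prototype Jun protein and itself a target of AP-1, separated the host genotypes. Its log2 signal was 7.85, 8.26, 8.11 and 7.77 in WT T cells in WT hosts, 8.33, 8.55 and 8.52 in WT T cells in KO hosts, and 8.37, 8.37, 8.61 and 8.57 in KO T cells in KO hosts. All 7 arrays from KO hosts exceeded all 4 from WT hosts, and arrays 1 and 4 of the reference group were lowest. The means were 7.99 ± 0.23 (SD, n = 4), 8.47 ± 0.12 (SD, n = 3) and 8.48 ± 0.13 (SD, n = 4). Against the reference, Jun was 0.47 ± 0.14 (SE) higher in WT T cells in KO hosts, a 1.39-fold difference, and 0.49 ± 0.13 higher in KO T cells in KO hosts, a 1.40-fold difference. The limma adjusted p was 0.629 and 0.405.

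The other Jun genes behaved differently from Jun in their values. Junb, a Jun protein that is a weaker activator and can restrain Jun, had log2 signals of 8.46, 8.52, 8.64 and 8.68 in the reference group, 8.72, 8.54 and 8.43 in WT T cells in KO hosts and 8.10, 8.43, 8.47 and 8.59 in KO T cells in KO hosts. The groups overlapped, and array 1 of the KO T cells was lowest. Junb differed from the reference by -0.01 ± 0.13 (SE), which turned to 0.053 under median centring, and by -0.18 ± 0.12 (limma adjusted p = 0.980 and 0.666).

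Jund, the Jun protein that is least inducible and present in resting cells, had means of 10.31 ± 0.10 (SD, n = 4), 10.21 ± 0.19 (SD, n = 3) and 10.28 ± 0.21 (SD, n = 4) in the 3 groups, with 10.02 the lowest and 10.55 the highest array. Its differences from the reference were -0.11 ± 0.14 (SE) and -0.03 ± 0.13, the latter 0.039 under median centring. Jund was the one member with a second row, which gave 8.71 ± 0.17, 8.58 ± 0.21 and 8.67 ± 0.34 (SD) and the same order of groups.

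Atf3 encodes a stress-induced protein of the ATF family that pairs with Jun and often represses its targets. Arrays gave log2 signals of 6.90, 6.14, 6.12 and 7.02 in the reference group, 6.35, 7.37 and 7.43 in WT T cells in KO hosts and 6.68, 7.21, 7.01 and 7.23 in KO T cells in KO hosts. Within the reference group and within WT T cells in KO hosts, the arrays fell into a higher and a lower set, and the groups overlapped. The mean differences of 0.50 ± 0.30 (SE) and 0.48 ± 0.27 were close in size to those for Jun and had a larger error (limma adjusted p = 0.667 and 0.626).

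Ier2, a nuclear protein of the immediate early response, had log2 signals of 8.54, 8.49, 8.90 and 8.46 in the reference group. They were 8.87, 8.98 and 8.67 in WT T cells in KO hosts and 8.98, 8.79, 8.79 and 8.97 in KO T cells in KO hosts. Array 3 of the reference group reached the level of the KO hosts, and the other 3 reference arrays lay below all 7 arrays from KO hosts. The differences were 0.24 ± 0.13 (SE) and 0.28 ± 0.12 (limma adjusted p = 0.667 and 0.580).

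Ier3 encodes a short-lived stress protein that is induced through NF-kappaB and acts on cell survival, and it differed most between hosts among the 10 genes. Its log2 signal was 6.50, 6.52, 6.36 and 6.51 in WT T cells in WT hosts, 7.45, 7.18 and 7.48 in WT T cells in KO hosts and 7.31, 7.77, 6.88 and 7.48 in KO T cells in KO hosts. The 4 reference arrays lay close together, and even the lowest array from KO hosts, array 3 of the KO T cells, was above all of them. Group means were 6.47 ± 0.077 (SD, n = 4), 7.37 ± 0.17 (SD, n = 3) and 7.36 ± 0.37 (SD, n = 4). The difference was 0.89 ± 0.18 (SE) for WT T cells in KO hosts, or 1.86-fold, with a limma adjusted p of 0.592. For KO T cells in KO hosts it was 0.89 ± 0.17, or 1.85-fold, with a limma adjusted p of 0.252. Among all 15194 genes, Ier3 ranked 5 and 10 by p in these comparisons.

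Dusp1 encodes a nuclear phosphatase that switches off MAP kinases. The signals on the log2 scale were 9.89, 9.50, 9.67 and 10.03 in the reference group, 9.96, 10.00 and 10.22 in WT T cells in KO hosts and 9.72, 10.12, 9.89 and 10.12 in KO T cells in KO hosts. The groups overlapped, since array 4 of the reference group was above 2 of the 3 arrays of WT T cells in KO hosts. The differences were 0.29 ± 0.15 (SE) and 0.19 ± 0.14 (limma adjusted p = 0.667 and 0.680).

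Zfp36, or tristetraprolin, binds AU-rich elements and promotes decay of mRNAs of cytokines and of several early genes. Log2 signals were 9.36, 9.62, 9.92 and 9.79 in the reference group, 9.40, 9.52 and 10.11 in WT T cells in KO hosts and 9.51, 9.51, 9.86 and 9.98 in KO T cells in KO hosts. Each group spanned most of the range, and the groups overlapped. The differences from the reference were 0.00 ± 0.20 (SE) and 0.04 ± 0.18, and under quantile normalization they were -0.092 and -0.00806.

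**Figure D2:**
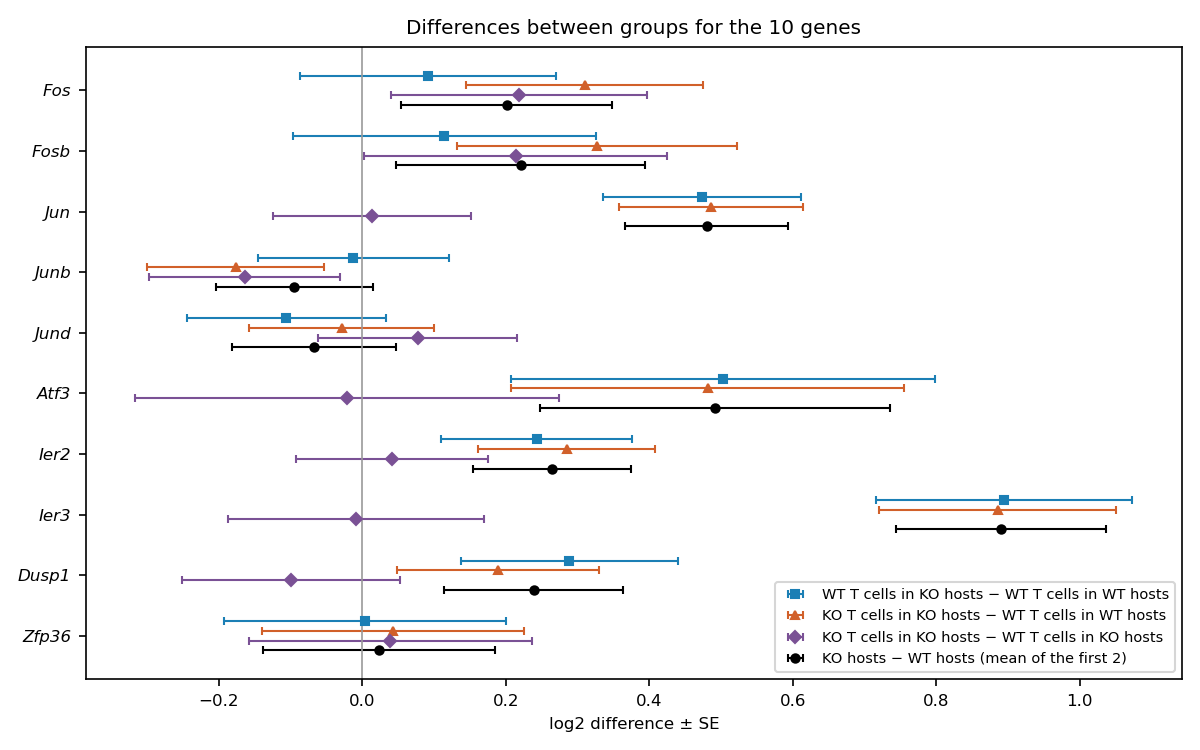
Log2 differences with their SE (horizontal axis) for the 10 genes (vertical axis) in the 4 comparisons, the last being the mean of the first and second. Ier3 at 0.89 and Jun at 0.47 to 0.49 stand farthest from 0 relative to their SE in the comparisons with WT hosts, and in the comparison of T cell genotypes all 10 lie between -0.16 and 0.22.

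The first comparison asked what galectin-3 in the host does to WT T cells. Set against the reference, WT T cells in KO hosts had 8 members higher and 2 lower, with a median log2 difference of 0.18 where the median of all genes was -0.03 and 45.5% of all genes were higher. None of the 10 passed the adjusted threshold, as was true of 0 of 15194 genes (0%), while 1136 genes had an unadjusted p under 0.05. Ier3 and Jun were higher at an unadjusted p under 0.05, 2 of 10 members, beside 3.62% of all genes. The same 2 did not overlap between groups, beside 3.57% of all genes. With 3 against 4 arrays an exact two-sided permutation test of a difference in means cannot give a p below 0.0286, which Ier3 reached, and Jun gave an exact p of 0.0571.

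The second comparison set galectin-3 loss in both T cells and host against neither. When KO T cells in KO hosts were compared with the reference, again 8 members were higher and 2 lower, with a median of 0.30 against -0.02 for all genes, of which 46.7% were higher. No member and 0 of 15194 genes (0%) passed the adjusted threshold, and 1285 had an unadjusted p under 0.05. Ier3, Jun and Ier2 were higher at an unadjusted p under 0.05, 3 of 10 members, beside 4.79% of all genes. Ier3 and Jun did not overlap between groups, beside 2.61% of all genes, and each gave the smallest exact permutation p that 4 against 4 arrays allow, 0.0286. Fosb gave an exact permutation p of 0.0571, Ier2 of 0.0857 and Fos of 0.143.

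The third comparison asked about galectin-3 of the T cell, within KO hosts. The members lay close together: 6 were higher and 4 lower in KO than in WT T cells, with a median of 0.03 against 0.01 for all genes, of which 53.2% were higher. No member passed the adjusted threshold, as for 0 of 15194 genes (0%). At an unadjusted p under 0.05 the count of members was 0, beside 3.42% (519) of all genes in either direction, and 0 members had groups that did not overlap, beside 4.07% of all genes. Ier3 differed by -0.01 with a 95% confidence interval of -0.40 to 0.38, and Jun by 0.01 with an interval of -0.29 to 0.31. The host difference was 0.89 for Ier3, with an interval of 0.57 to 1.21, and 0.48 for Jun, with an interval of 0.23 to 0.73. The T cell and host intervals overlap for Jun and not for Ier3, and both comparisons use the same arrays from KO hosts. For Atf3 the T cell interval was -0.66 to 0.62, beside a host interval of -0.04 to 1.02. Fos and Fosb were 0.22 ± 0.18 (SE) and 0.21 ± 0.21 higher in KO T cells, with intervals of -0.17 to 0.61 and -0.25 to 0.67, and Junb differed by -0.16 ± 0.13. Lgals3, the deleted gene, differed by -0.84 ± 0.14 here with a limma adjusted p of 0.661, and so was not called either.

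The mean of both differences from the reference contrasts KO hosts with WT hosts, with T cell genotypes mixed on the KO side. Again 8 members were higher and 2 lower, with a median of 0.23 against -0.02 for all genes, of which 46.5% were higher. No member and 0 of 15194 genes (0%) passed, while 1563 genes had an unadjusted p under 0.05. Ier3, Jun and Ier2 were higher at an unadjusted p under 0.05, 3 of 10 members, beside 5.07% of all genes. Ier3 and Jun were higher in all 7 arrays from KO hosts than in any of the 4 from WT hosts, 2 of 10 members, beside 0.856% of all genes. Ier3 was 0.89 ± 0.15 (SE) higher with a limma adjusted p of 0.290, and ranked 2 among all genes by p. Jun was 0.48 ± 0.11 higher with a limma adjusted p of 0.291, and ranked 54. With 7 and 4 arrays the exact two-sided permutation test cannot give less than p = 0.00303, and both genes gave that value, unadjusted for the 10 genes. Ier2 was 0.26 ± 0.11 higher (exact permutation p = 0.0212), Dusp1 0.24 ± 0.12 (exact permutation p = 0.0848) and Atf3 0.49 ± 0.24 (exact permutation p = 0.121). Fos and Fosb differed by 0.20 ± 0.15 and 0.22 ± 0.17, and Zfp36, Jund and Junb by 0.02 ± 0.16, -0.07 ± 0.11 and -0.09 ± 0.11.

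Ier3 and Jun were next set beside the macrophage markers and the value range, which also moved with the host. The macrophage score, the mean deviation of the 15 markers from their means over arrays, was -0.35 to -0.20 in WT hosts and -0.06 to 0.48 in KO hosts. In WT T cells in KO hosts, scores of -0.02, 0.04 and 0.48 went with Ier3 signals of 7.45, 7.18 and 7.48. In KO T cells in KO hosts, scores of 0.18, 0.26, 0.24 and -0.06 went with 7.31, 7.77, 6.88 and 7.48. All 7 arrays from KO hosts exceeded those from WT hosts in score as well as in Ier3 and Jun. With the score as a covariate, the host difference of Ier3 was 0.87 ± 0.27 (SE) and that of Jun 0.38 ± 0.21. With the same covariate the host differences of Fos, Fosb and Zfp36 turned to -0.080, -0.30 and -0.30, and those of Junb and Jund to 0.11 and 0.22. Since the scores of WT and KO hosts did not overlap, these fits cannot tell host genotype and macrophage transcripts apart. The part of macrophage transcripts in the members' levels was not tested.

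The value range was considered next. Jun was lowest, at 7.85 and 7.77, in the 2 reference arrays of narrowest range, and highest, at 8.61, in array 3 of KO T cells with a slope of 1.03. With value range as a covariate, the host difference of Jun was 0.25 ± 0.094 (SE), and without the 2 narrow arrays it was 0.29 ± 0.12. For Ier3 the same fits gave 1.04 ± 0.18 and 0.92 ± 0.20. Ier2 gave 0.16 ± 0.13 with the covariate and 0.17 ± 0.14 without those arrays. Atf3 and Dusp1 moved the other way, to 0.67 ± 0.33 and 0.37 ± 0.15 with the covariate and to 0.91 ± 0.27 and 0.43 ± 0.14 without those arrays, which hold their highest reference signals. Fos and Fosb each gave 0.07 in both fits. The covariates were chosen after earlier results of these data were known.

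**Figure D3:**
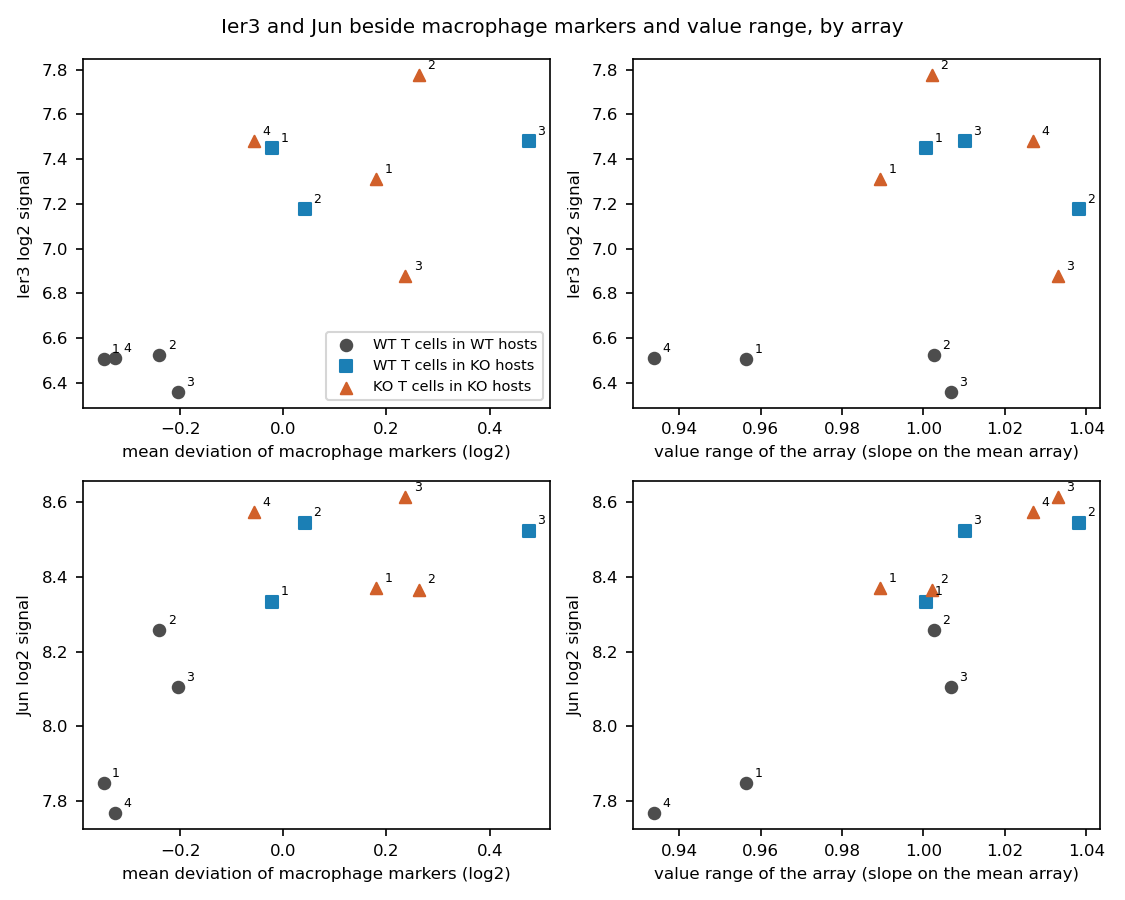
Log2 signal of Ier3 (upper panels) and Jun (lower panels) in the 11 arrays against the mean log2 deviation of the macrophage markers (left) and the slope of each array on the mean array (right), with replicate numbers beside the points. Ier3 lies at 6.36 to 6.52 in WT hosts at slopes of 0.934 to 1.01, whereas Jun is lowest in the arrays with slopes of 0.934 and 0.956.

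Each array was also read across the members. The mean deviation of the 10 genes from their own means over all 11 arrays, which includes the difference between groups, ran from -0.24 in array 1 of WT T cells in WT hosts to 0.27 in array 4 of KO T cells in KO hosts. In that last array all 10 genes lay above their own mean over arrays, and in the first 1 of 10 did. The 4 reference arrays had mean deviations of -0.24 to -0.11, the 3 of WT T cells in KO hosts -0.05, 0.07 and 0.23, and the 4 of KO T cells in KO hosts -0.07, 0.16, 0.07 and 0.27. Arrays 1 from KO hosts thus stood nearer the reference arrays than the others of their groups. Array 3 of WT T cells in KO hosts held the highest signal of 4 members, Fosb, Atf3, Dusp1 and Zfp36, and the lowest of Jund, and it was also the array of highest macrophage score.

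Within groups, most pairs of members were only weakly related. Among the 45 pairs, the correlation of deviations from group means over the 11 arrays was positive for 29, with a median r of 0.12 and a range of -0.52 to 0.91. Fos and Zfp36 followed each other most closely, with r = 0.912 (exact permutation p within groups = 0.00174, adjusted 0.0781) and rho = 0.873 (exact permutation p = 0.00463, adjusted 0.117). Leaving out the 2 arrays farthest from the median of Fos gave r = 0.916. In each of the 3 groups 1 array was highest for both genes. Atf3 and Dusp1 had r = 0.799 (exact permutation p = 0.0104, adjusted 0.234) and rho = 0.836 (exact permutation p = 0.00521, adjusted 0.117), and r = 0.891 without the 2 farthest arrays. The lowest r was -0.523, for Fosb and Ier2. None of the 45 pairs passed Benjamini-Hochberg adjustment at 0.05 on the deposited values. After centring each array on its median, an alternative added after seeing the data, both named pairs did, with adjusted permutation p of 0.0130 and 0.0391. Quantile and cyclic loess normalization, added in the same way, moved the adjusted permutation p to 0.195 and 0.156 for Fos with Zfp36, and to 0.247 and 0.352 for Atf3 with Dusp1.

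**Figure D4:**
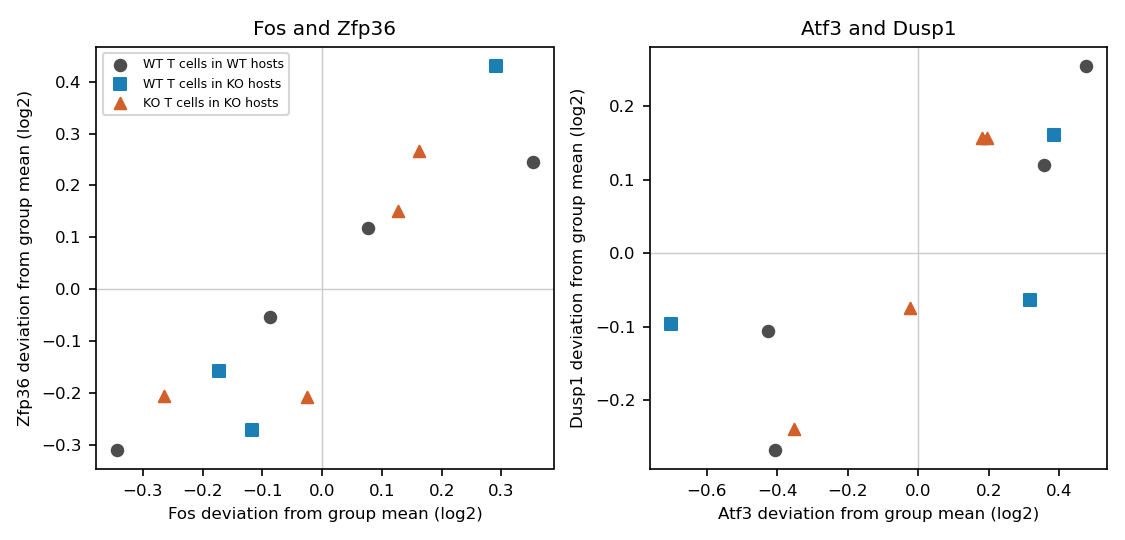
Deviation of log2 signal from the group mean in each of the 11 arrays for Zfp36 against Fos (left) and Dusp1 against Atf3 (right), with symbols for the 3 groups. The within-group r is 0.912 for Fos with Zfp36 and 0.799 for Atf3 with Dusp1.

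Other genes of the same response were read from lists chosen by function. None of the genes in them passed the adjusted threshold in any comparison. Of 14 other immediate early transcription factors, 13 were higher in KO than in WT hosts, with a median of 0.16, and 3 had an unadjusted p under 0.05. Over all genes 46.5% were higher, 5.07% were higher at an unadjusted p under 0.05, and the median was -0.02. The 3 were Nfil3, a bZIP repressor, at 0.28 ± 0.12 (SE), Klf10 at 0.29 ± 0.12 and Csrnp1 at 0.24 ± 0.10. Klf4 was 0.79 ± 0.27 higher in KO T cells in KO hosts than in the reference and 0.64 ± 0.29 higher than in WT T cells in KO hosts. Some neutrophil transcripts moved in the same comparisons. S100a8 was 2.72 ± 0.55 and S100a9 1.10 ± 0.23 higher in KO T cells in KO hosts than in the reference. Of the 8 neutrophil markers tested, 3 were higher and 5 lower in that comparison. Against WT T cells in KO hosts, S100a8 and S100a9 were 1.54 ± 0.59 and 1.02 ± 0.25 higher, and 8 of 8 neutrophil markers were higher. The part of neutrophil transcripts in the signal of Klf4 was not tested. Nfil3 was 0.50 ± 0.14 above the reference in WT T cells in KO hosts, and lower by -0.44 ± 0.14 in KO than in WT T cells within KO hosts.

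Of 21 feedback regulators, 16 were higher and 5 lower in KO hosts, 3 of them higher at an unadjusted p under 0.05, with a median of 0.04, beside the same shares of all genes (46.5% and 5.07%). The lowest p values belonged to Gadd45b, a stress sensor that acts on MAP kinase signalling, at 0.39 ± 0.12 (SE), Ppp1r15a, which restores translation after stress, at 0.40 ± 0.13 and Nfkbia, the inhibitor of NF-kappaB that NF-kappaB itself induces, at 0.38 ± 0.16. Of the 9 Fos and Jun relatives tested (Batf2 and Batf3 did not enter), 5 were higher and 4 lower with a median of 0.00, and Atf4, Fosl2 and Atf2 differed by 0.10, 0.07 and 0.07. The upstream kinases and factors were also divided, 7 of 12 tested being higher with a median of 0.03, and Mapk8, a JNK kinase that phosphorylates Jun, was 0.34 ± 0.16 higher. Most of this came from WT T cells in KO hosts, where Mapk8 stood 0.55 ± 0.19 above the reference. Within KO hosts it was lower by -0.41 ± 0.19 in KO than in WT T cells. The mean of Mapk8 was 6.27 in the reference, 6.82 in WT T cells in KO hosts and 6.41 in KO T cells in KO hosts.

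Known targets of Zfp36 were higher in 6 of 8 tested, beside 46.5% of all genes, with a median of 0.24, and 2 were higher at an unadjusted p under 0.05, beside 5.07%. Ifng, the main effector cytokine of CD8 T cells, was 0.38 ± 0.13 (SE) higher in KO hosts, and Cxcl2, a neutrophil chemokine, 0.76 ± 0.32. These were the 2 genes. Ptgs2, the inducible cyclooxygenase, was 0.63 ± 0.30 higher (limma unadjusted p = 0.058) and is counted among the 8. Its mean of 4.29 in WT hosts lay below the filter value of 4.33, so Ptgs2 was tested only through its signal in KO hosts. Zfp36 itself differed by 0.02 in the same comparison. Heat shock genes that rise during tissue digestion were evenly divided, with 4 of 8 tested higher and a median of 0.03. Dnaja1 was 0.25 ± 0.12 higher, Hsph1 0.24 ± 0.14 higher and Hspb1 lower by -0.21 ± 0.13.

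The genes whose pattern over the 11 arrays was most like the mean of the 10 members were Arhgap19, with r = 0.942 and rho = 0.882, Slfn5, with r = 0.914 and rho = 0.945, Clk3, with r = 0.907 and rho = 0.973, and Twistnb, with r = 0.903. Brd2 and Ccl2 were among the first 10, with r = 0.893 and 0.876. For Ier3 the nearest were Usp18, an interferon-induced protease, with r = 0.949 and rho = 0.918, Tmem184b with r = 0.921, Exosc10 with r = 0.904, Nme3 with r = 0.893 and the chemokine Ccl3 with r = 0.891. These likenesses are a description of 11 arrays that also differ in host genotype and value range. Ier3 and the mean of the members each separated the host genotypes. A gene that differs between hosts can therefore reach a high r without following them within groups, and no r within groups was computed here.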

How the data were processed

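RNA of the sorted cells was extracted with a Nanoprep kit, amplified with the Ovation Pico kit and labelled with biotin, per the labels' protocols. The authors deposited log2 signals, and the submitters' processing notes name RMA, Partek and the build mm9. Their versions are not given in the sources used here, and the log2 scale was read from the values, which run from 1.27 to 14.4. RMA includes a normalization between arrays, so differences are relative to the other genes, and the arrays still differed in the spread of their values.

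The table has 115830 rows. By the platform annotation 1 gene is named by 25539 of them, several genes by 2300 and none by 87991. The row of highest mean stood for a gene. The filter removed dim genes, those below a mean log2 signal of 4.33, the 25th percentile. Spread was pooled over the 11 arrays in limma 3.58.1 (R 4.3.3: lmFit, eBayes, group means), with Benjamini-Hochberg adjustment over 15194 genes at 0.05. The procedure was tested on simulated data. Single genes were also compared by exact two-sided permutation of arrays. Pairs of members were correlated on deviations from group means, with p from the 3456 orders of arrays within groups and adjustment over 45 pairs. The number of arrays limits the precision. Pairs of arrays correlated at 0.942 to 0.974 and shared at most 21 identical values.

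Named genes were the 10 members, the 3 of lowest p per list and comparison, Lgals3, and the genes of most similar pattern. Not all of them are printed. The members and lists were chosen with earlier results of these data known. Promoters came from RefSeq (GRCm38.p6), another build than that of the authors. Alternatives covered normalization, filters, rows, variance models, array weights, covariates, a block for replicate numbers and each array left out in turn. Same-numbered arrays correlated at -0.114 to 0.123 in their deviations (10 pairs, 2 above 0.1), so numbers were not taken to pair samples.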

Additional observations from a re-analysis of the deposited data

Results flagged for a closer look

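In 20 sets of 4 arrays, 10 genes in each group of 4, the highest or lowest array was set against the others of its group, and 2 stood apart by Dixon's criterion, which chance meets in about 1 in 20 groups. Both were in array 3 of WT T cells in WT hosts. Ier2 was 8.90 there, where the other 3 arrays lay between 8.46 and 8.54. Ier3 was 6.36 there, below the 6.50 to 6.52 of the others. The group of 3 arrays was not examined in this way.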

How the results depend on the processing

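No member passed an adjusted p of 0.05 under any alternative run. Ier3 was 0.82 to 1.04 higher in KO than in WT hosts over 24 alternatives. Its limma adjusted p ran from 0.0532 to 0.9995, beside 0.290 in the main fit. The lowest was reached without array 3 of KO T cells, the array from KO hosts with the lowest Ier3 signal. Why no member was called was not tested.

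Below, the comparisons are named A (WT T cells, KO minus WT hosts), B (KO T cells in KO hosts minus the reference), C (KO minus WT T cells in KO hosts) and D (KO minus WT hosts). Genes past the threshold over the whole array numbered 0 in each. In B there were 2 under quantile normalization, median centring, a filter at the 50th percentile or the mean of a gene's rows. In D there was 1 under those settings and with array weights. With the replicate number as a block, B gave 3 and D gave 1, and the block changed no call for a member. Leaving out 1 array gave 0 to 1 in B (1 without array 4 of KO T cells) and 0 to 1 in D (1 without array 2 of the reference).

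Members turned sign as follows. Under quantile normalization Fos in A became -0.000193, Zfp36 -0.092 in A, -0.00806 in B and -0.050 in D, and in C Atf3 became 0.00333 and Ier3 0.014. Under cyclic loess Zfp36 became -0.074 in A, -0.00375 in B and -0.039 in D, and Ier3 in C 0.00472. Median centring gave 0.053 for Junb in A and 0.039 for Jund in B. Array weights gave 0.013 for Jund in B and, in C, -0.00940 for Jun, 0.058 for Ier3 and -0.040 for Zfp36. The replicate block gave 0.037 for Junb in A and -0.025 for Zfp36 in C. Value range as a covariate gave -0.046 for Fos, -0.044 for Fosb and -0.13 for Zfp36 in A, and for Zfp36 -0.082 in B and -0.11 in D. Without the 2 arrays of narrowest range Fos was -0.041, Fosb -0.038 and Zfp36 -0.092 in A, and Zfp36 was -0.053 in B and -0.073 in D. With macrophage markers as a covariate, A gave -0.19 for Fos, -0.41 for Fosb, 0.19 for Junb, 0.19 for Jund and -0.32 for Zfp36. B then gave -0.19 for Fosb, 0.022 for Junb, 0.26 for Jund and -0.28 for Zfp36, and D gave -0.080 for Fos, -0.30 for Fosb, 0.11 for Junb, 0.22 for Jund and -0.30 for Zfp36. The cause of these turns was not tested.

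With 1 array left out, the range in A was -0.053 to 0.21 for Fos, -0.14 to 0.25 for Fosb, -0.091 to 0.055 for Junb and -0.21 to 0.14 for Zfp36. In B it was -0.12 to 0.057 for Jund and -0.061 to 0.12 for Zfp36, and in D -0.084 to 0.11 for Zfp36. In C it was -0.37 to 0.17 for Atf3, -0.042 to 0.11 for Ier2, -0.15 to 0.15 for Ier3, -0.054 to 0.052 for Jun, -0.015 to 0.17 for Jund and -0.097 to 0.25 for Zfp36. Fosb in A turned sign without array 3 of WT T cells in KO hosts and with no other array left out. Single arrays also moved other values by over 1.5 times. Atf3 in A was 0.85 without array 1 and 0.31 without array 3 of WT T cells in KO hosts. Without array 3 of WT T cells in KO hosts Fos was 0.13 in D and 0.36 in C, and Fosb 0.093 in D and 0.47 in C. Without array 1 of the reference Fos was 0.087 in D and 0.20 in B, and without its array 3 Fos was 0.32 in D. Without array 2 of the reference Fosb was 0.34 in D, and Dusp1 was 0.15 in D and 0.10 in B. Without array 1 of KO T cells Junb was -0.079 in B and -0.066 in C, and Fosb 0.34 in C. Without array 1 of WT T cells in KO hosts Junb was -0.086 and Fosb 0.079 in C, and without array 2 Fos was 0.13 and Fosb 0.093 in C. For differences near 0, only the turns of sign are listed.

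The correlation of Fos with Zfp36 stayed between 0.883 and 0.945, and that of Atf3 with Dusp1 between 0.746 and 0.907, over the normalizations and arrays left out, and adjusted p was 0.0130 to 0.312 and 0.0391 to 0.938.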
